A study of Mus musculus with 2 samples.

Results

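The 10 genes described here encode the machinery that links G protein-coupled receptors to cAMP: the G protein α subunits Gnas and Gnai2, the adenylyl cyclase Adcy7, the protein kinase A (PKA) subunits Prkaca, Prkacb, Prkar1a and Prkar2b, and the RGS proteins Rgs1, Rgs2 and Rgs10. They were chosen by name out of 32285 genes in the feature list, of which 19855 had at least 1 count. Their levels were taken in each library and by whether a cell barcode held a transcript of Calca, Il5 or Il2.

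Group 2 innate lymphoid cells (ILC2s), tissue-resident lymphocytes that release type 2 cytokines, were sorted from the lung by viability, absence of lineage markers and surface CD90.2, Sca-1 and ST2. One pool of cells came from WT mice and another from Pac1-/- mice, which lack the phosphatase PAC1, the product of Dusp2, in all tissues on the C57BL/6J background. Each pool gave 1 droplet-based 3′ scRNA-Seq library, no stimulation was named for these cells, and barcodes could not be assigned to individual mice. The study asked how loss of PAC1 alters ILC2s and their response to calcitonin gene-related peptide (CGRP), which ILC2s themselves can make from Calca.

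In this pathway a receptor coupled to Gαs, the main product of Gnas, activates adenylyl cyclase, whereas Gαi proteins such as that of Gnai2 inhibit it. The cAMP that is formed binds the regulatory subunits of PKA and releases the catalytic subunits, which phosphorylate targets such as the transcription factor CREB. RGS proteins speed up GTP hydrolysis by Gα subunits and so shorten signaling, and in ILC2s receptors of this kind receive neuropeptides, catecholamines and prostaglandins, with the CGRP receptor coupled to Gαs.

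Barcodes needed 500 detected genes or more, and a mitochondrial share of no more than 10% of their UMIs (unique molecular identifiers, 1 per captured transcript). This left 8394 WT and 7087 Pac1-/- barcodes with median depths of 4186.5 and 5577 UMIs and summed depths of 54579034 and 58338886 UMIs. Of these barcodes, 15 sequences occurred in both libraries. Dusp2, the targeted gene, had 1419 UMIs in WT and 5 UMIs in Pac1-/-. ILC2 markers summed to 7293 UMIs per 1000000 UMIs (CPM) in WT and 6255 CPM in Pac1-/-, and after thinning to equal depth, single markers of the 10 ranged from 11% to 85.7% of WT barcodes and from 12.1% to 77.0% of Pac1-/- barcodes. The lists for 10 other cell types summed to between 0.696 and 70.1 CPM in WT and between 0.994 and 246 CPM in Pac1-/-. The erythroid list was the highest of them, at 70.1 CPM in WT and 246 CPM in Pac1-/-. In the T cell list, Cd3e had 573 and 343 UMIs in WT and Pac1-/-, Trac 441 and 178, and Cd3d 231 and 131. Cd4 had 1 UMI in each library and Cd8a had 0. In the macrophage list, Lyz2 had 67 and 327 UMIs, Cd68 62 and 84, Adgre1 3 and 1, and Csf1r 0 and 1. With 1 library per genotype, no difference between genotypes has a replicate check or a test. Differences by status are given in each library side by side, without a test, and every 95% interval covers counting error only.

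All 10 genes are protein coding. The windows below run from 250 bases before to 50 bases after a start site (RefSeq, GRCm38.p6) and are shown for Rgs2 and Prkar1a, the genes that were higher in Calca and Il5 barcodes and have an entry, for Calca itself, and for Adcy7, which was lower in barcodes with Calca. Entries existed for 8 of the 10 genes, and Gnai2 and Rgs1 are named only. Capitals mark the cAMP response element TGACGTCA, to which CREB binds, and its core TGACG, searched on both strands. A full element contains the core on both strands. On the other strand the core reads CGTCA.
Rgs2, chr1:144004100-144004399, minus strand: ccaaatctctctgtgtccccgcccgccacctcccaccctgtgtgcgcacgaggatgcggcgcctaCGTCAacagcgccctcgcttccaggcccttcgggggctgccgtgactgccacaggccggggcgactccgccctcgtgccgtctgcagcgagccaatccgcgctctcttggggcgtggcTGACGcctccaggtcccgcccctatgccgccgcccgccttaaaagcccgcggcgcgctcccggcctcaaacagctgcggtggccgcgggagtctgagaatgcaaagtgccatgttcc
Prkar1a, chr11:109650699-109650998, plus strand: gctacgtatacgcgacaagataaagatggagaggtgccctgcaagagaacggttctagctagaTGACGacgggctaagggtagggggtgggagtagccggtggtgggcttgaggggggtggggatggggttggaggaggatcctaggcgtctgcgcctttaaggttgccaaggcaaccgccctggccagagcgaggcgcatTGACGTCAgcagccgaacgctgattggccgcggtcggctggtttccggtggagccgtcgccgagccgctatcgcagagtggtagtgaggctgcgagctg
Calca, chr7:114636308-114636607, minus strand: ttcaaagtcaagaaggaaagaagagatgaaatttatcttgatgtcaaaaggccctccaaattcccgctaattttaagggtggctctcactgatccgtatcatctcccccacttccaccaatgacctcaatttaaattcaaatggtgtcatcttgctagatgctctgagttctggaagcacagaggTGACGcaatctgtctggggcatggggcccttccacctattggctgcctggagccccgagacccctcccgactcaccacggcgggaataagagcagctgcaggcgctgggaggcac
Adcy7, chr8:88282742-88283041, plus strand: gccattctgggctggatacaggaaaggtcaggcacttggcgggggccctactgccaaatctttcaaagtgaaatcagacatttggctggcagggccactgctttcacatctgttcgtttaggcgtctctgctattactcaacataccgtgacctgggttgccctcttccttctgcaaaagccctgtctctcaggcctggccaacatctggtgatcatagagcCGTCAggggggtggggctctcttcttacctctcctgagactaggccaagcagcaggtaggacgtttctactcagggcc
The Rgs2 window held 2 cores, which began 185 and 67 bases before the start site. In Prkar1a, 2 of 6 windows held a full element, the same one in overlapping windows, and it began 49 bases before the start site of the window shown. Calca held a core 65 bases before its start and Adcy7 a core 28 bases before the start of the first of its 3 windows. Among genes not shown, cores occurred in 3 of 4 windows of Gnas, 1 of 2 of Prkaca, 1 of 3 of Prkacb and 1 of 1 of Dusp2. No window of Prkar2b, Rgs10, Il5 or Il2 held a core. Across all 32851 windows of this length, 1.79% held the full element and 20.8% the core. By gene, the shares with such a window were 2.03% and 23.0%. Cores are thus common, and a match is a description of letters, not of binding.

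The level of each gene is given in CPM over all kept barcodes. Counting from the 3′ end makes these values independent of transcript length to a first order. The genes were ranked by captured UMIs, and whether all genes were captured equally well was not tested. The order was the same in both libraries: Rgs2, Rgs1, Gnas, Prkar1a, Gnai2, Prkacb, Rgs10, Adcy7, Prkaca and Prkar2b. No pair of neighbours in this order had overlapping counting intervals in either library. The genes thus spanned from the 74th most abundant gene in WT (Rgs2) to the 9816th (Prkar2b).

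**Figure D1:**
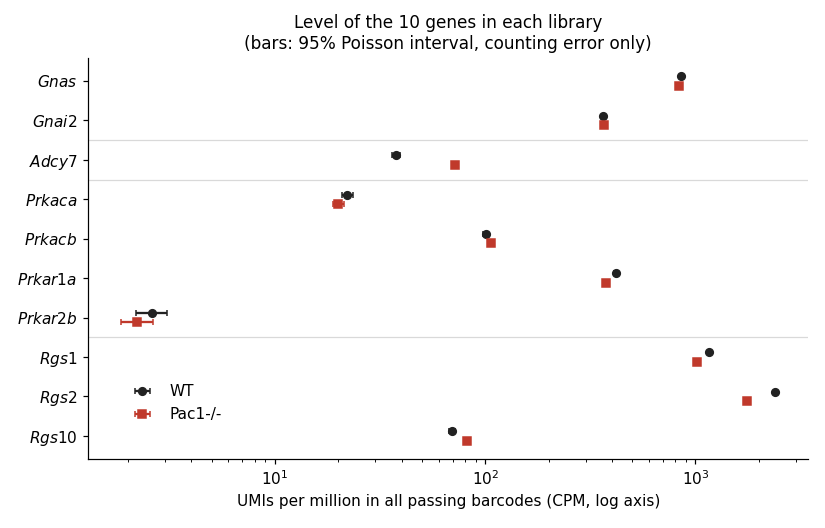
Level of the 10 genes in the WT library (circles) and the Pac1-/- library (squares), in CPM on a log axis, with 95% Poisson intervals for counting error; grey lines part G proteins, cyclase, PKA subunits and RGS genes. Rgs2 was the highest in both libraries (2397 and 1754 CPM), Prkar2b the lowest (2.60 and 2.21 CPM), and Adcy7 was higher in Pac1-/- (37.7 and 72.2 CPM).

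Gnas (chromosome 2, 174284320 to 174346744, plus strand of GRCm38) encodes Gαs, which activates adenylyl cyclase. It was at 857 CPM (850 to 865) in WT and 838 CPM (830 to 845) in Pac1-/-. Thinned to 1500 UMIs, 69.5% of WT barcodes and 68.8% of Pac1-/- barcodes held a Gnas UMI, against 91.6% and 93.5% without thinning. The Gnas locus also gives other protein products from further start sites that share the 3′ end, and 3′ counts do not part them from Gαs. Nespas and Gm20721 lie on its opposite strand, and no source used here states whether counting used strand.

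Gnai2 (chromosome 9, 107614125 to 107635367, minus strand) encodes a Gαi subunit that inhibits adenylyl cyclase. Its level was 364 CPM (359 to 370) in WT and 366 CPM (362 to 371) in Pac1-/-, within counting error of each other. The ratio of Gnas to Gnai2 UMIs was 2.35 (2.31 to 2.39) in WT and 2.29 (2.25 to 2.32) in Pac1-/-. With Gnai3 counted on the Gαi side as well, the ratio was 1.83 (1.80 to 1.86) and 1.70 (1.67 to 1.72). Captured transcripts of the stimulatory subunit thus outnumbered those of the inhibitory ones in both libraries.

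Adcy7 (chromosome 8, 88272403 to 88329962, plus strand) encodes an adenylyl cyclase of hematopoietic cells, and it was the most abundant of the 5 cyclases tested. WT had 2058 UMIs, or 37.7 CPM (36.1 to 39.4), and Pac1-/- had 4210 UMIs, or 72.2 CPM (70.0 to 74.4). Thinned barcodes held an Adcy7 UMI in 5.5% of WT (5.0 to 6.0) and 10.6% of Pac1-/- cases (9.85 to 11.4). The unthinned shares were 19.0% and 36.1%.

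The PKA catalytic subunits were Prkaca (chromosome 8, 83972993 to 83996443, plus strand) and Prkacb (chromosome 3, 146729574 to 146812990, minus strand). Prkaca was at 22.1 CPM (20.9 to 23.4) in WT and 20.04 CPM (18.9 to 21.2) in Pac1-/-. Prkacb was at 100.4 CPM (97.7 to 103) in WT and 106 CPM (104 to 109) in Pac1-/-, and Gm19104 lies on its opposite strand. Prkacb outnumbered Prkaca by 4.54 to 1 in WT (4.26 to 4.84) and 5.30 to 1 in Pac1-/- (4.98 to 5.65), so the β catalytic transcript was the main one captured.

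Of the regulatory subunits, which hold the catalytic subunits inactive until cAMP binds, Prkar1a (chromosome 11, 109649405 to 109669656, plus strand) was by far the most abundant. It was at 417 CPM (412 to 423) in WT and 376 CPM (371 to 381) in Pac1-/-. Its UMIs exceeded those of the other 3 regulatory genes together by 17.5 to 1 in WT and 12.8 to 1 in Pac1-/-. Prkar2b (chromosome 12, 31958476 to 32061296, minus strand), an RII regulatory subunit, had 142 UMIs in WT and 129 UMIs in Pac1-/-, and 0.341% and 0.350% of thinned barcodes held one. All captured regulatory transcripts exceeded all captured catalytic ones by 3.60 to 1 in WT (3.51 to 3.70) and 3.22 to 1 in Pac1-/- (3.13 to 3.30).

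Rgs1 and Rgs2 lie on the minus strand of chromosome 1, Rgs2 from 143999338 to 144004161 and Rgs1 from 144242296 to 144249242, with 238 kilobases between them. Rgs2, which acts on Gαq and can also inhibit adenylyl cyclase, was at 2397 CPM (2384 to 2410) in WT and 1754 CPM (1743 to 1765) in Pac1-/-. Rgs1, a lymphocyte RGS protein that acts on Gαi and Gαq and restrains chemokine responses, was at 1163 CPM (1154 to 1172) in WT and 1019 CPM (1011 to 1027) in Pac1-/-. Rgs10 (chromosome 7, 128373621 to 128418758, minus strand), which acts on Gαi, was far lower, at 69.7 CPM (67.5 to 71.9) in WT and 82.0 CPM (79.7 to 84.4) in Pac1-/-.

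After thinning, 77.8% of WT barcodes (76.9 to 78.8) and 69.9% of Pac1-/- barcodes (68.7 to 71.0) held a Rgs2 UMI. Rgs1 was found in 59.4% (58.2 to 60.5) and 54.3% (53.1 to 55.6). Without thinning the Rgs2 shares were 89.6% and 87.3%, and those of Rgs1 were 78.1% and 79.5%, so the order of the libraries for Rgs1 turned with depth. The levels varied widely among barcodes, with up to 31 Rgs2 UMIs and 30 Rgs1 UMIs in a WT barcode of 1500, and a mean of 3.23 with an SD over barcodes of 3.56 for Rgs2. The WT barcodes held both genes in 50.4% of cases (49.2 to 51.5) and the Pac1-/- barcodes in 42.0% (40.8 to 43.2). Rgs2 was present in 84.9% of WT barcodes that held Rgs1 and in 67.6% of those that did not, and in Pac1-/- these shares were 77.3% and 61.0%.

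To compare the genotypes, Pac1-/- was set over WT as a log2 ratio relative to the median of the 12427 genes with at least 50 UMIs, since that median gene was itself 0.19 higher in Pac1-/- on the log2 scale. Past 1.5-fold, 1 of the 10 genes was higher and 1 lower, where the share of all genes tested was 8.22% higher and 12.8% lower. Adcy7 was the higher one, with a relative log2 ratio of 0.75 (0.67 to 0.83). Rgs2 was the lower one, at −0.64 (−0.65 to −0.63), where 1.5-fold corresponds to 0.58. As counted, without the median gene, the ratio of Rgs2 was −0.45 and did not reach 1.5-fold, while that of Adcy7 was 0.94. On that scale 16.9% of all genes were higher past 1.5-fold and 8.34% lower. The count of 2 of 10 is near the background of all genes.

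The other 8 genes lay within 1.5-fold of the median gene. The relative log2 ratios were −0.42 (−0.78 to −0.07) for Prkar2b, −0.38 for Rgs1, −0.34 for Prkar1a, −0.33 (−0.45 to −0.21) for Prkaca and −0.22 for Gnas. Those of Gnai2 (−0.18) and Prkacb (−0.11) were below the median gene, and turned to 0.01 and 0.08 as counted. Rgs10 was level with the median gene at 0.05 (−0.01 to 0.11). In all, 8 of the 10 genes were below the median gene, and the median of the 10 was −0.28, against 0 for all genes by construction. As counted, Rgs1 was at −0.19, Prkar1a at −0.15, Prkaca at −0.14 and Gnas at −0.03. Prkar2b was at −0.23 (−0.59 to 0.12) and Rgs10 at 0.23 (0.17 to 0.30) as counted. The count of 8 and the median of −0.28 thus rest partly on the median gene's own offset of 0.19.

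The other genes of the pathway were counted by list. Of 30 G protein subunits, 22 were tested, with 1 higher past 1.5-fold and 3 lower. Of all genes tested, 8.22% were higher and 12.8% lower, or 16.9% and 8.34% as counted, so the counts of this list are near the background. Gngt2, a γ subunit, was higher (0.75, 0.43 to 1.08), whereas Gnaz (−1.09), Gnal (−0.99), a close relative of Gnas that also stimulates cyclase, and Gna13 (−0.60) were lower. As counted, the balance of this list turned to 3 higher (Gngt2, Gng10 and Gna11) and 2 lower (Gnaz and Gnal), as the balance of all genes also turned. Of the cyclases, 5 of 10 were tested, and Adcy4 was lower (−0.86, −1.40 to −0.33) on 76 and 51 UMIs. Among PKA subunits, inhibitors and anchors, 17 of 20 were tested and Akap5, an anchoring protein, was at −0.64 with an interval that covers 0 (−1.36 to 0.06), and it did not pass as counted.

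Of 19 RGS genes, 11 were tested, with Rgs19 higher (0.64, 0.53 to 0.76) and 3 lower, namely Rgs2, Rgs16 (−0.87, −1.02 to −0.73) and Rgs9 (−1.48, −2.04 to −0.94). As counted, 2 were higher (Rgs19 and Rgs14), near the 16.9% of all genes, and 2 lower (Rgs9 and Rgs16). Of the receptor kinases, arrestins and cAMP-activated Rap exchange factors, 7 of 9 were tested, all of them receptor kinases or arrestins. No exchange factor had enough UMIs. Grk5, a kinase that desensitizes receptors, was lower past 1.5-fold (−1.12, −1.29 to −0.94). The other 6 lay between −0.38 and −0.01, and for Grk3, Grk4 and Grk6 the interval covered 0. As counted, Grk6 (0.18), Grk3 (0.14), Grk4 (0.10), Arrb1 (0.07) and Arrb2 (0.03) were above 0, and Grk2 (−0.19) was below it. Relative to the median gene, which was itself 0.19 higher in Pac1-/-, the list medians were −0.09 for G protein subunits and 0.11 for cyclases. They were −0.11 for the PKA list, 0.05 for RGS genes and −0.12 for receptor kinases and arrestins. Immediate-early genes, which also respond to cell isolation, had a median of 0.07, with 4 of 15 lower (Egr2, Egr3, Atf3 and Nr4a1) and 0 higher past 1.5-fold, and as counted 2 lower (Egr2 and Nr4a1), against 12.8% of all genes on the relative scale and 8.34% as counted. Their part in these ratios was not tested.

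**Figure D2:**
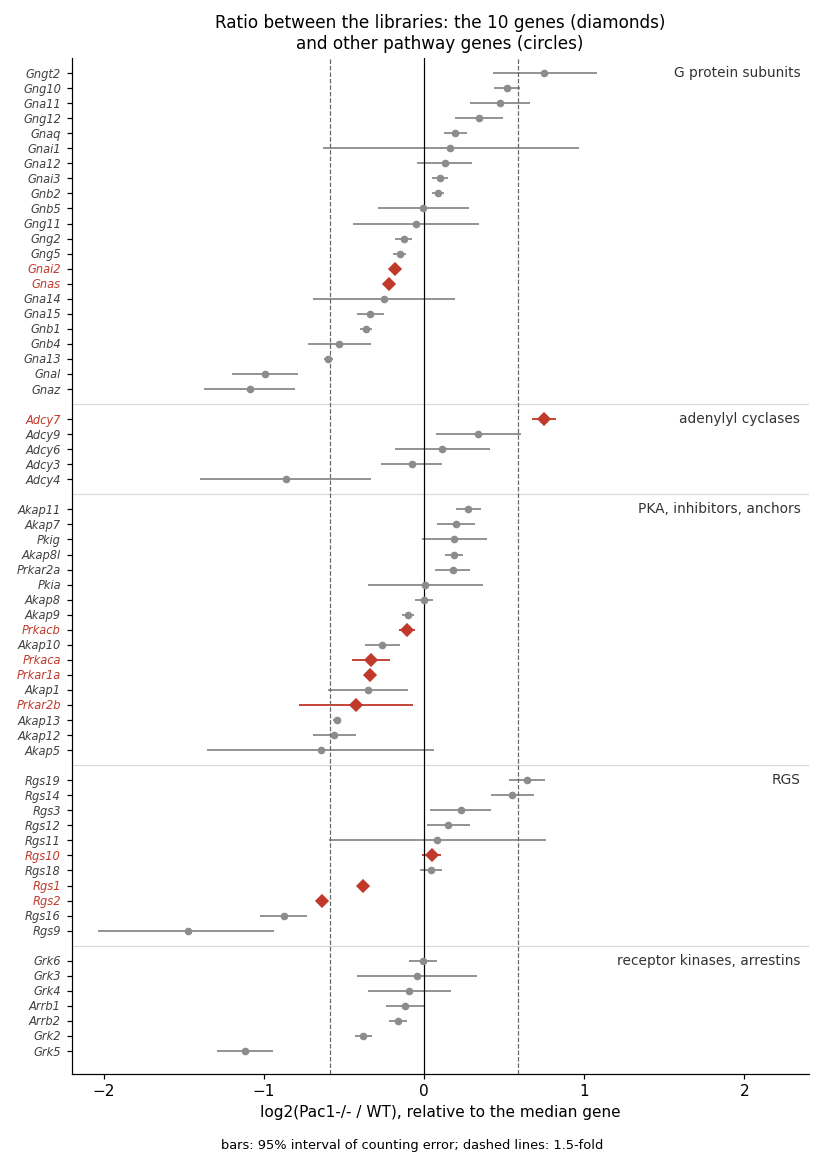
Log2 ratio of Pac1-/- over WT relative to the median gene for the 10 genes (red diamonds) and the other tested genes of their pathway lists (grey circles), with 95% intervals for counting error and dashed lines at 1.5-fold. Adcy7 (0.75) lies beyond the line on the right and Rgs2 (−0.64) just beyond that on the left, while Gnas, Gnai2, Prkacb and Rgs10 lie close to 0.

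The same genes were then compared between barcodes with and without a UMI of Calca, the gene for CGRP. All barcodes were thinned to 1500 UMIs for this, since a deeper barcode is more likely to show any gene, and 760 WT and 523 Pac1-/- barcodes were too shallow and left out. Calca was found in 2344 of 7634 WT barcodes (30.7%) and 1398 of 6564 Pac1-/- barcodes (21.3%), against 49.3% and 40.1% without thinning. Before thinning, barcodes with Calca had more UMIs (medians of 5302.5 against 4207 in WT and 6899 against 5624 in Pac1-/-). As a background, barcodes with UMIs of at least 2 B cell markers held Calca in 1 of 7 WT and 2 of 23 Pac1-/- cases, with median depths before thinning of 3258 and 4652 UMIs. Of these, 5 of the 7 and 11 of the 23 held Rgs2, 1 and 5 held Rgs1, and 0 and 2 held Adcy7. B cells also express Rgs2, and the source of these UMIs was not tested. These barcodes are too few to set a background share for Calca or for these genes.

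Rgs2, Rgs1 and Prkar1a were higher in barcodes with Calca, and Adcy7 was lower. In WT, Rgs2 was at 2879 CPM (2823 to 2936) with Calca and 1828 CPM (1798 to 1858) without, and in Pac1-/- at 2291 CPM (2227 to 2357) and 1398 CPM (1372 to 1425). Rgs1 was at 1370 and 939 CPM in WT and at 1317 and 867 CPM in Pac1-/-. Prkar1a was at 497 and 357 CPM in WT and at 446 and 352 CPM in Pac1-/-. In all 3 genes and both libraries the intervals of the classes did not overlap.

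Relative to the median gene, Rgs2 had a log2 ratio of 0.82 (0.78 to 0.86) in WT and 0.86 (0.81 to 0.91) in Pac1-/-. The values for Rgs1 were 0.71 (0.66 to 0.76) and 0.75 (0.69 to 0.82), and for Prkar1a 0.64 (0.56 to 0.73) and 0.49 (0.38 to 0.60). Adcy7 was at 27.3 CPM (22.1 to 33.3) with Calca and 42.5 CPM (38.1 to 47.3) without in WT, a ratio of −0.47 (−0.81 to −0.14). In Pac1-/- it was at 48.2 CPM (39.2 to 58.5) and 83.6 CPM (77.3 to 90.3), a ratio of −0.64 (−0.96 to −0.34). A single Adcy7 UMI in a barcode is a rare event at this depth, and the ratio was −0.71 in WT and −0.53 in Pac1-/- in another random thinning.

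Past 1.5-fold in WT, 3 of the 9 genes tested were higher and 0 lower, where 6.16% of all genes were higher and 5.10% lower. In Pac1-/-, 2 of 9 were higher and 1 lower, against 6.25% and 4.19% of all genes. The calls in WT turned on the median gene: as counted, Rgs2 (0.66) was higher and Adcy7 (−0.64) lower past 1.5-fold, while Rgs1 (0.55) and Prkar1a (0.48) were not past it, where 3.13% of all genes were higher and 11.2% lower as counted. In Pac1-/- the same 3 genes passed as counted (3.24% of all genes higher, 8.69% lower), but without thinning Rgs1 (0.50) and Adcy7 (−0.25) did not. Without thinning, Prkar1a in WT (0.53) did not pass either. Prkar2b had too few UMIs to be tested. Gnas (0.20 in WT and 0.16 in Pac1-/-), Gnai2 (0.17 and 0.10), Prkaca (−0.03 and −0.09), Prkacb (−0.41 and −0.18) and Rgs10 (−0.09 and 0.20) stayed within 1.5-fold. For Gnas and Gnai2 the as-counted ratios were between −0.05 and 0.03, so their offset is that of the median gene.

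Il5, a type 2 cytokine gene, was present in 2532 WT barcodes (33.2%) and 1322 Pac1-/- barcodes (20.1%) after thinning, against 53.1% and 39.5% before it. Of the barcodes with B cell markers, 1 of 7 in WT and 2 of 23 in Pac1-/- held Il5. Barcodes with Il5 were deeper before thinning, at medians of 5501 against 4150 UMIs in WT and 7264.5 against 5596.5 UMIs in Pac1-/-. Rgs2 was at 2961 CPM (2906 to 3016) with Il5 and 1749 CPM (1719 to 1779) without in WT, and at 2484 CPM (2415 to 2554) and 1363 CPM (1337 to 1389) in Pac1-/-. Rgs1 was at 1399 and 909 CPM in WT and at 1411 and 850 CPM in Pac1-/-, and Prkar1a at 490 and 355 CPM and at 465 and 349 CPM. The classes were again apart beyond their intervals for these 3 genes.

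Relative to the median gene, the log2 ratio for Il5 status was 0.92 (0.89 to 0.96) for Rgs2 in WT and 1.04 (0.99 to 1.09) in Pac1-/-. It was 0.78 and 0.90 for Rgs1, and 0.63 (0.54 to 0.71) and 0.59 (0.48 to 0.69) for Prkar1a, the latter just past 1.5-fold. Adcy7 had −0.31 (−0.63 to 0.00) in WT and −0.56 (−0.88 to −0.25) in Pac1-/-, the latter just inside it. Thus 3 of 9 genes tested were higher and 0 lower in both libraries. The share of all genes was 5.78% higher and 5.30% lower in WT, and 7.37% and 5.83% in Pac1-/-. As counted, Prkar1a was not past 1.5-fold in WT (0.47) or Pac1-/- (0.42), and Adcy7 (−0.73) and Prkaca (−0.60) were lower past it in Pac1-/-. The as-counted shares of all genes were 2.94% higher and 10.7% lower in WT, and 4.20% and 11.8% in Pac1-/-. Without thinning, Prkar1a was not past 1.5-fold in either library (0.50 and 0.43). Prkaca, with 86 and 26 UMIs in Il5 barcodes, had ratios of 0.30 (−0.10 to 0.68) and −0.43 (−1.09 to 0.18), both with 0 inside the interval.

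Il2, a cytokine gene found in few of these barcodes, gave another picture. After thinning, 570 WT barcodes (7.47%) and 514 Pac1-/- barcodes (7.83%) held it, against 19.9% and 25.5% without thinning. It was in 0 of the 7 and 0 of the 23 barcodes with B cell markers, which allows shares of up to 42.9% and 13.0% when 0 is read as at most 3 counts, with exact Clopper-Pearson upper limits of 41.0% and 14.8%. Past 1.5-fold, 0 of the 8 genes tested were higher or lower in either library. The background was 0.993% of genes higher and 3.07% lower in WT, and 0.722% and 2.45% in Pac1-/-. Rgs2 was at 1877 CPM (1786 to 1971) with Il2 and 2173 CPM (2145 to 2201) without in WT, and at 1667 CPM (1577 to 1760) and 1582 CPM (1556 to 1608) in Pac1-/-. Its ratios of −0.20 (−0.28 to −0.13) and 0.10 (0.01 to 0.18) lay on opposite sides of the median gene, and without thinning the WT value was 0.11.

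Rgs1 had ratios of −0.02 (−0.12 to 0.08) in WT and 0.25 (0.14 to 0.35) in Pac1-/- for Il2 status, and Prkar1a had −0.29 (−0.46 to −0.11) and −0.08 (−0.26 to 0.10). Adcy7 in Pac1-/- was at 104 CPM (82.3 to 129) with Il2 and 73.7 CPM (68.2 to 79.5) without, on 80 UMIs in the smaller class, a ratio of 0.51 (0.16 to 0.85). In another random thinning this ratio was −0.07 and at 1000 UMIs it was −0.18, so no direction is read from it. Beside this, 12 of 13 immediate-early genes tested in WT and 13 of 13 in Pac1-/- lay above the median gene in Il2 barcodes, with list medians of 0.23 and 0.24, and their part in the Il2 ratios was not tested. In WT the Adcy7 ratio was −0.16 (−0.76 to 0.38) on 29 UMIs.

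Among the other genes of the pathway, Gna13, which encodes a G protein α subunit, was also higher with Calca and with Il5 in both libraries. Its relative log2 ratios were 0.61 and 0.64 for Calca and 0.66 and 0.69 for Il5 (WT and Pac1-/-), and as counted they were 0.45, 0.49, 0.50 and 0.52, none past 1.5-fold. Akap12, an anchoring protein of PKA, was past 1.5-fold in the same 4 comparisons, as counted too, with relative ratios of 2.0 and 1.39 for Calca and 2.39 and 1.60 for Il5. Rgs16 passed for Il5 in both libraries (0.63, 0.19 to 1.06, and 1.44, 0.83 to 2.02), on 77 and 40 UMIs, and as counted in Pac1-/- alone.

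By list, and against the shares of all genes given above (6.16% and 6.25% higher for Calca, 5.78% and 7.37% for Il5, in WT and Pac1-/-), 3 of 16 G protein subunits tested were higher for Calca in WT (Gna13, Gnal and Gng12) and 1 of 14 in Pac1-/-, where Gna12 was lower. A count of 1 in a list of this size is near the share of all genes. Of the PKA list, 3 of 13 were higher in WT (Prkar1a, Akap12 and Pkig) and 1 lower (Akap10), and 1 of 12 was higher in Pac1-/-. For RGS genes the counts were 2 of 9 higher in both libraries, which were Rgs1 and Rgs2, with Rgs14 lower in WT. For Il5, 2 of 17 G protein subunits, 2 of 14 genes of the PKA list and 3 of 9 RGS genes were higher in WT, and 1 of 14, 2 of 12 and 3 of 9 in Pac1-/-, with 0 lower. As counted, the higher counts for Calca were 2, 1 and 1 in WT and 0, 1 and 2 in Pac1-/- for G protein subunits, the PKA list and RGS genes, and those for Il5 were 0, 1 and 2 in WT and 0, 1 and 3 in Pac1-/-. The lower counts as counted were 1, 1 and 3 and 1, 0 and 0 for Calca, and 0, 2 and 1 and 0, 1 and 0 for Il5. The shares of all genes as counted were 3.13%, 3.24%, 2.94% and 4.20% higher and 11.2%, 8.69%, 10.7% and 11.8% lower, for Calca in WT and Pac1-/- and Il5 in WT and Pac1-/-. For Il2, Rgs19 in Pac1-/- was the one pathway gene past 1.5-fold. The medians of these 3 lists lay between −0.12 and 0.20 for Calca and Il5, against 0 for all genes. Receptor kinases and arrestins had medians of 0.11 and −0.17 for Calca and −0.25 and −0.20 for Il5, with 0 past 1.5-fold (Arrb1 was lower as counted for Il5 in WT). No exchange factor had enough UMIs to be tested. Of the cyclases, 2 were tested in WT, with medians of −0.06 for Calca and −0.12 for Il5, and Adcy7 alone in Pac1-/-.

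**Figure D3:**
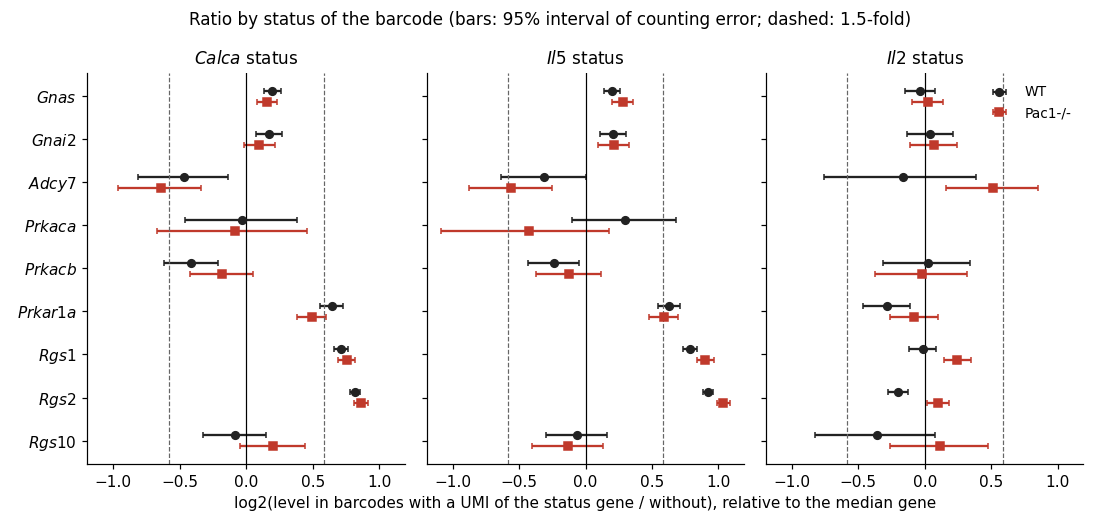
Log2 ratio of the level in thinned barcodes with over those without a UMI of Calca, Il5 or Il2, relative to the median gene, for each gene tested in WT (black circles) and Pac1-/- (red squares), with 95% intervals for counting error and dashed lines at 1.5-fold. Rgs1 and Rgs2 lie beyond the right line for Calca and Il5 in both libraries (0.71 to 1.04), and no gene lies beyond a line for Il2.

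The levels were also taken by the number of Calca UMIs. In WT, Rgs2 was at 1828 CPM in barcodes with 0, 2543 CPM with 1, 2945 CPM with 2 and 3466 CPM (3350 to 3586) with 3 or more Calca UMIs. In Pac1-/- the same steps gave 1398, 2090, 2394 and 2619 CPM (2486 to 2758). Rgs1 went from 939 to 1617 CPM in WT and from 867 to 1508 CPM in Pac1-/- over these steps, and Prkar1a from 357 to 595 CPM and from 352 to 550.1 CPM.

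By Il5 UMIs, Rgs2 was at 1749, 2379, 2958 and 3816 CPM in WT and at 1363, 1981, 2923 and 3244 CPM in Pac1-/-. At 2 Il5 UMIs the Rgs2 intervals of the libraries overlapped (2829 to 3092 in WT and 2739 to 3117 in Pac1-/-), whereas at 0, 1 and 3 or more they did not. Adcy7 went the other way, from 41.7 CPM with 0 to 18.1 CPM (11.5 to 27.2) with 3 or more Il5 UMIs in WT, on 23 UMIs, and from 82.7 to 23.6 CPM (12.6 to 40.4) in Pac1-/-, on 13 UMIs. At that end the Adcy7 intervals of the libraries overlapped.

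**Figure D4:**
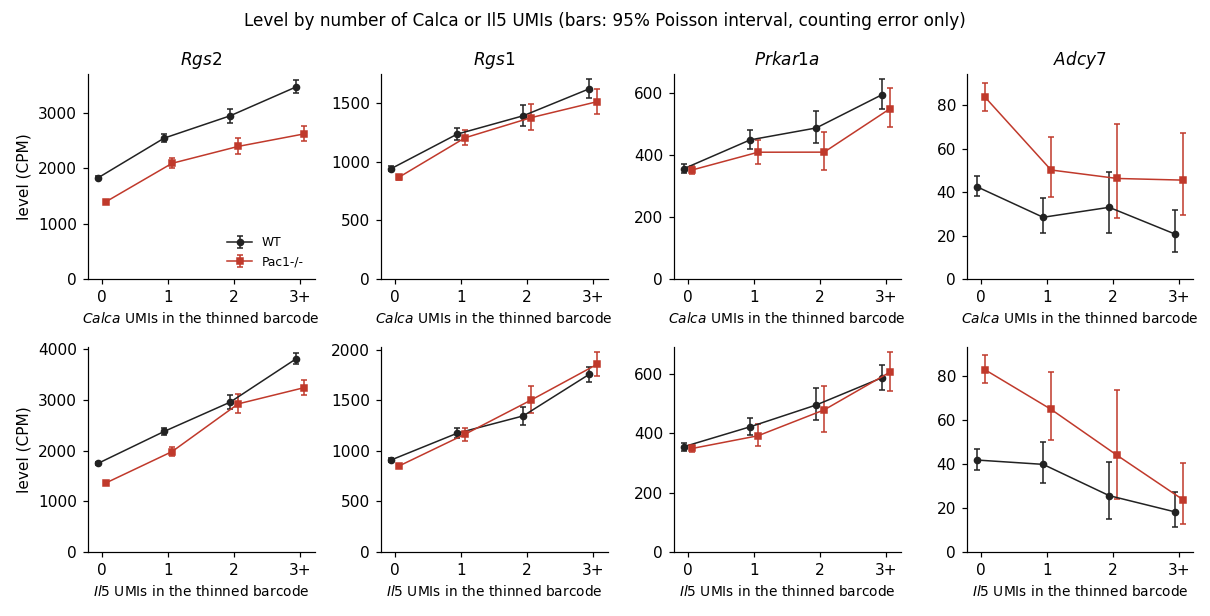
Level in CPM of Rgs2, Rgs1, Prkar1a and Adcy7 (columns) in thinned barcodes by the number of Calca UMIs (top row) or Il5 UMIs (bottom row), with 95% Poisson intervals for counting error; WT is black and Pac1-/- red. Rgs2 is higher at each step, up to 3466 CPM for Calca and 3816 CPM for Il5 in WT, and Adcy7 is lower with 3 or more Il5 UMIs (18.1 and 23.6 CPM) than with 0 (41.7 and 82.7 CPM).

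Calca and Il5 often occurred in the same barcodes, so the combined classes were set side by side among barcodes without Il2. In WT, Rgs2 was at 1564 CPM (1530 to 1598) in 3582 barcodes with neither gene, 2374 CPM in 1135 with Calca alone, 2609 CPM in 1281 with Il5 alone and 3480 CPM (3389 to 3573) in 1066 with both. In Pac1-/- these levels were 1236, 1953, 2169 and 2930 CPM (2808 to 3055), in 4030, 796, 727 and 497 barcodes. Barcodes with either gene alone thus lay between the others, and those with both were the highest.

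Rgs1 had the same order at its ends, with 819 and 1581 CPM in WT and 776 and 1600 CPM in Pac1-/- for neither and both, as did Prkar1a with 334 and 558 CPM and 341 and 537 CPM. The intervals of Calca alone and Il5 alone overlapped for Prkar1a in both libraries and for Rgs1 in WT, but not for Rgs1 in Pac1-/- (1068 to 1189 and 1214 to 1349 CPM). Adcy7 was at 48.2 CPM (42.5 to 54.4) in WT and 85.0 CPM (77.8 to 92.7) in Pac1-/- with neither gene, whereas with both the libraries overlapped, at 27.5 CPM (19.99 to 36.9) and 30.9 CPM (19.6 to 46.3). The values with both rest on 44 and 23 UMIs of 1 random thinning, so the overlap does not show equal levels. With Calca alone the libraries were apart, at 24.1 CPM (17.3 to 32.7) in WT and 55.3 CPM (42.8 to 70.3) in Pac1-/-. So they were with Il5 alone, at 31.2 CPM (23.8 to 40.2) and 60.5 CPM (46.8 to 77.0). Barcodes with Il2 alone lay near those with none in WT for Rgs2 (1518 CPM, 1408 to 1635, in 310 barcodes) and above them in Pac1-/- (1415 CPM, 1314 to 1522, in 341 barcodes).

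**Figure D5:**
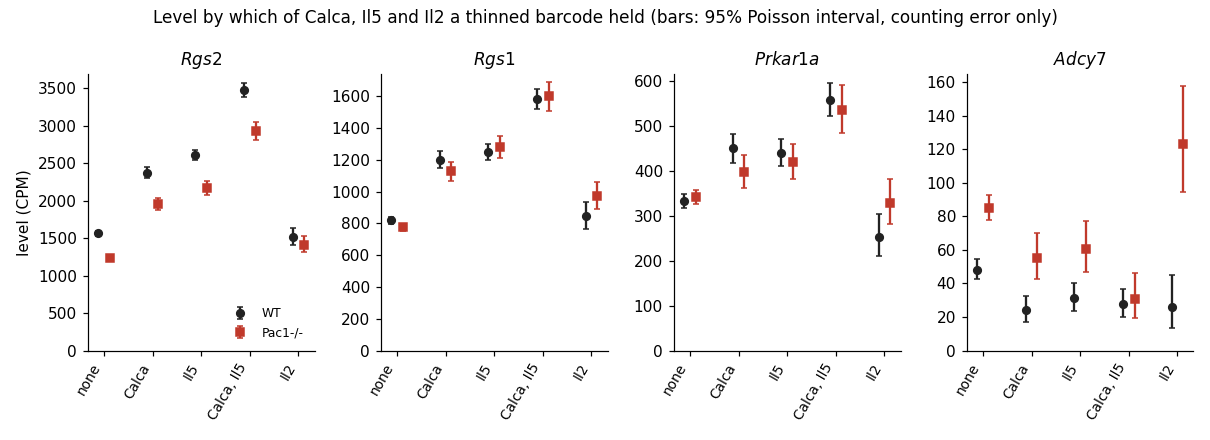
Level in CPM of Rgs2, Rgs1, Prkar1a and Adcy7 in thinned barcodes that held none of Calca, Il5 and Il2, Calca alone, Il5 alone, Calca and Il5, or Il2 alone, in WT (black) and Pac1-/- (red), with 95% Poisson intervals for counting error. Rgs2, Rgs1 and Prkar1a are highest with Calca and Il5 together (3480, 1581 and 558 CPM in WT). Adcy7 is higher in Pac1-/- than in WT with none of them (85.0 and 48.2 CPM). With Calca and Il5 together, its intervals overlap (30.9 and 27.5 CPM), on only 23 and 44 UMIs.

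The ratio between genotypes was then taken within each status class, relative to that class's own median gene. For Rgs2 it was −0.47 (−0.52 to −0.42) in barcodes with Calca and −0.55 (−0.58 to −0.51) in those without, and −0.36 (−0.41 to −0.31) with Il5 and −0.52 (−0.55 to −0.48) without. Rgs2 was thus lower in Pac1-/- in each of these classes, by less than 1.5-fold. Rgs1 had −0.19 with and −0.27 without Calca, and −0.09 with and −0.25 without Il5. As counted, Rgs1 with Il5 was at 1399 CPM in WT and 1411 CPM in Pac1-/-, so its −0.09 is the offset of the median gene. Adcy7 was higher in Pac1-/- with Calca (0.68, 0.26 to 1.10) and without (0.82, 0.63 to 1.01), and with Il5 (0.63, 0.23 to 1.03) and without (0.83, 0.64 to 1.03). For Il2 status, Rgs2 had −0.25 (−0.36 to −0.15) with and −0.63 (−0.66 to −0.60) without. Adcy7 had 0.78 (0.60 to 0.96) without Il2 and 1.53 (0.90 to 2.20) with it. The value with Il2 rests on 29 and 80 UMIs of the thinning whose Il2 ratios of Adcy7 changed sign in another one, so its size is not relied on. Past 1.5-fold on few UMIs were also Prkaca with Il5 (−0.89, −1.58 to −0.25, on 86 and 26 UMIs) and Rgs10 with Il2 (0.66, 0.10 to 1.24, on 45 and 68 UMIs). Whether these ratios differ between classes could not be tested without replicates.

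Other values differed by Calca, Il5 and Il2 status as well. ILC2 markers summed to 8131 CPM with Calca and 6345 CPM without in WT and to 7213 and 5707 CPM in Pac1-/-. Erythroid genes summed to 19.1 and 72.7 CPM in WT and to 57.2 and 316 CPM in Pac1-/-, and mitochondrial shares were close (medians of 2.47% and 2.57% in WT). Epithelial genes were at 33.3 and 121 CPM with and without Calca in WT and at 47.7 and 134 CPM in Pac1-/-, whereas endothelial genes were higher with Calca (59.7 and 31.8 CPM, 56.3 and 35.7 CPM). Over all kept barcodes, Pecam1 gave 40.7 of the 41.8 CPM of the endothelial list in WT and 37.3 of 38.6 CPM in Pac1-/-. The endothelial sums are thus mostly those of 1 gene. By Il5 status, ILC2 markers were at 8196 and 6247 CPM in WT and at 7618 and 5627 CPM in Pac1-/-, and erythroid genes at 19.2 and 74.6 CPM and at 45.9 and 315 CPM. Epithelial genes were at 35.0 and 124 CPM with and without Il5 in WT and the other way round in Pac1-/-, at 193 and 96.4 CPM, and endothelial genes were higher with Il5 in WT (56.6 and 32.3 CPM) and in Pac1-/- (65.1 and 33.8 CPM). Macrophage genes were at 0.853 and 3.02 CPM with and without Calca in WT and at 2.38 and 19.7 CPM in Pac1-/-, and B cell genes at 51.8 and 73.0 CPM and at 63.9 and 99.1 CPM. Over all kept barcodes, Ighm gave 53.9 of the 60.2 CPM of the B cell list in WT and 66.9 of 78.3 CPM in Pac1-/-. By Il2 status, erythroid genes were at 23.4 and 58.9 CPM in WT and at 71.3 and 277 CPM in Pac1-/-. Epithelial genes were at 23.4 and 100 CPM and at 41.5 and 122 CPM, and macrophage genes at 1.17 and 2.45 CPM and at 1.30 and 17.3 CPM. T cell genes were higher with Il2 (29.2 and 18.9 CPM, 18.2 and 10.4 CPM), and ILC2 markers were close (6543 and 6922 CPM, 5979 and 6032 CPM). Of the immediate-early genes, Nr4a1 was higher past 1.5-fold for Calca (0.66 and 0.80) and Il5 (0.64 and 0.81) in both libraries, and Atf3 for Il5 in both (0.60 and 0.84) and for Calca in Pac1-/- (0.62), while Ier3 was lower in Pac1-/- for Calca and Il5. As counted, Nr4a1 passed in Pac1-/- alone (0.65 and 0.64), and Atf3 in Pac1-/- for Il5 alone (0.67). The part of these values in the ratios was not tested beyond the next comparison. A gate for an ILC2 marker and against markers of other cell types kept 7460 of 8394 WT and 6029 of 7087 Pac1-/- barcodes. The listed B cell gene Ighm alone was in 23.8% and 33.5% of barcodes before thinning. The gate thus did not remove every barcode with a listed marker, and the markers it used are not stated here. Within it, the Calca ratio of Rgs2 was 0.84 in WT and 0.85 in Pac1-/-, and that of Rgs1 was 0.72 and 0.74. In the third of barcodes that lay in the middle by UMIs before thinning, an alternative chosen after the data were seen, the Calca ratio of Rgs2 was 0.87 and 0.97, and that of Rgs1 was 0.68 and 0.84.

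The genes most like each member were sought among 2685 genes of at least 50 CPM, by Pearson's r over 16 pools of barcodes made by the 8 combinations of Calca, Il5 and Il2 status in each library, centred within a library. These pools come from only 2 libraries and differ in size, so r is a description. For Rgs2 they were Rora (0.98), a transcription factor of ILC2s, Samsn1 (0.96) and Hilpda (0.96). For Rgs1 they were Mex3c (0.95), Dusp5 (0.95), a phosphatase of ERK, and Areg (0.94), the gene of the growth factor amphiregulin. For Prkar1a they were Fbxo34 (0.95), Epb41l2 (0.94) and Ythdc1 (0.94).

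The remaining genes gave lower values or rest on few UMIs. Gnas had Klf5 (0.74), Selenok (0.73) and Eif4a1 (0.67) as its closest genes, and Gnai2 had Nt5e (0.87), Tpp2 (0.83) and Vapa (0.83). For Adcy7 they were Cap1 (0.88), the gene of an actin regulator first found as a cyclase-associated protein, Bcas2 (0.82) and Mrpl24 (0.80). Prkacb was closest to Pura (0.92), Rps29 (0.90) and Cnot3 (0.87), Prkaca to Nop10 (0.91), Sfswap (0.86) and Atp5g1 (0.80), and Rgs10 to Mbd1 (0.91), Slain2 (0.90) and Slc7a8 (0.90). Prkar2b, at a mean of 2.35 CPM, gave Rpl17 (0.77), Dbi (0.74) and Naa50 (0.73).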

How the data were processed

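The authors deposited raw UMI counts per gene and barcode, made from droplet-based 3′ reads aligned to mm10 with Cell Ranger. The submitters' processing notes name version 6.1.1 and the file header 4.0.0. The annotation release and strand setting are not given in the sources used here. Barcodes with under 500 detected genes (2403 in WT, 2110 in Pac1-/-) or over 10% mt- UMIs (171 and 441) were left out. Doublets were not called. Tables were computed with pandas 2.3.3, numpy 2.4.6 and scipy 1.17.1 in Python 3.11.15, and plots were drawn with matplotlib 3.10.9.

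CPM carry exact Poisson, shares exact Clopper-Pearson and ratios exact conditional binomial 95% intervals. These cover counting error only. With 1 library per genotype no p-value was computed. For status, each barcode was thinned to 1500 UMIs, a depth that kept over 90% of barcodes in both libraries. Genes were tested with at least 50 UMIs over both libraries, or at least 20 expected in the smaller status class. The code was tested on simulated data with known folds. Genes named in the text are the 10 members, Dusp2, the status genes, pathway genes past 1.5-fold and the 3 most alike to each member, by r of log2(CPM + 10). Gnai3, Grk2, Grk3, Grk4, Grk6, Arrb1, Arrb2, Pecam1, Ighm and the listed T cell and macrophage genes were named after their values were seen. So were the immediate-early genes, antisense neighbours and genes past 1.5-fold as counted alone. The members and lists were chosen with earlier results of these data known. Positions were matched by identifier to GENCODE M21 for 99.6% of genes. A listed anchor, Akap2, was not matched by name and was not used here.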

Additional observations from a re-analysis of the deposited data

How the results depend on the processing

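Of 68 counts of genes past 1.5-fold under an alternative, 64 were within 1.5 times the main count, though the genes behind such a count can differ. For Calca in WT, Prkar1a dropped out as counted (0.48), without thinning (0.53) and in barcodes with no Il5 or Il2 UMI (0.55), and Rgs1 dropped out as counted (0.55), while Adcy7 came in as lower as counted (−0.64), without barcodes over 2 times the median UMIs (−0.75), in another thinning (−0.71) and in barcodes with no Il5 or Il2 UMI (−0.89). For Calca in Pac1-/-, Adcy7 dropped out without thinning (−0.25), at 1000 UMIs (−0.35), in another thinning (−0.53) and in barcodes with no Il5 or Il2 UMI (−0.53), while Prkar1a came in as higher in another thinning (0.62) and at 2 or more Calca UMIs (0.65), and Prkaca as lower at 1000 UMIs. For Il5, Prkar1a dropped out in both libraries as counted (0.47 and 0.42), without thinning (0.50 and 0.43) and in barcodes with no Calca or Il2 UMI (0.51 and 0.40). In Pac1-/- it also dropped out in the gate for ILC2 markers described above (0.56), which did not remove every marker of another cell type. Adcy7 came in as lower for Il5 in both libraries without barcodes over 2 times the median UMIs (−0.63 and −0.76), at 2 or more Il5 UMIs (−0.78 and −1.17) and in the third of barcodes in the middle by depth (−0.99 and −0.93), at 1000 UMIs in WT (−0.78), and as counted in Pac1-/- (−0.73). As counted, without the median gene, the genotype count was 1 (Adcy7) instead of 2, and the ratios of Gnai2 and Prkacb turned to 0.0079 and 0.0813. Without thinning, 1 gene (Rgs2) instead of 3 passed for Calca in Pac1-/-, and Rgs2 for Il2 in WT turned to 0.11. For Il2 the count went from 0 to 1 in WT (Adcy7, lower) in barcodes with no Calca or Il5 UMI, and from 0 to 1 in Pac1-/- (Rgs1, higher) at 2 or more Il2 UMIs. Adcy7 for Il2 in Pac1-/- turned to −0.18 at 1000 UMIs per barcode and −0.0707 in another thinning, and Gnai2 for Il5 in Pac1-/- to −0.0175 in the third of barcodes in the middle by depth, an alternative chosen after the data were seen. Of 584 ratios of single genes under an alternative, 432 stayed within the counting interval of the main value. Another 146 left that interval, and 6 left it with the other sign. Rgs2 kept its sign and passed 1.5-fold for Calca and Il5 in both libraries under each alternative. The causes were not tested, except that fewer barcodes and UMIs remain in the smaller sets. Depth limits Prkar2b, Prkaca and Adcy7 most.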
